A study of Mus musculus with 13 samples.

Results

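The immediate early genes described here are Fos, Fosb, Jun, Junb, Egr1, Ier2, Ier3, Atf3, Dusp1 and Zfp36. They were matched by exact symbol in the array's gene annotation. The set was chosen with earlier results of these data known. Its 10 genes were read on the same arrays and are not independent observations. Counts among them, set beside shares of all genes, are descriptions. All 10 were found among 19934 genes with a probe set of their own, each was read by 1 probe set, and all 10 passed the filter on low values, as did 15875 genes in all. Levels are log2 intensities from a mouse Affymetrix gene array. RNA came from epithelium peeled off mouse esophagus and forestomach after treatment with the protease dispase. The 4 groups were 3 forestomach masses from L2-Cre animals with floxed p120-catenin alleles (p120 flox/flox, animals 412, 426 and 510), forestomach from 3 control animals, esophagus from 4 other p120 flox/flox animals (193, 307, 313 and 335), and esophagus from the same 3 control animals. The control animals, 214, 216 and 217, carried Cre and were p120 +/+, and all animals were of a mixed C57Bl/6 and 129 strain. The L2 promoter is known to be active in squamous epithelium, where it drives Cre. All flox/flox forestomach arrays come from masses, so genotype and mass formation cannot be told apart there. Ages were not given in the sources used here.

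Immediate early genes are transcribed within minutes of a stimulus, without the need for newly made protein, when growth factor or stress signals reach transcription factors already present in the cell. Fos and Fosb pair with Jun and Junb to form the transcription factor AP-1, and Egr1 and Atf3 are further inducible transcription factors. Dusp1 dephosphorylates MAP kinases and Zfp36 speeds the decay of AU-rich mRNAs, so both limit the response, while Ier2 is a nuclear regulator of transcription and Ier3 modulates cell survival and ERK signalling. In squamous epithelium the AP-1 genes are known for their part in keratinocyte growth, differentiation and wound response. Transcripts of these genes are also known to change with tissue handling and enzyme digestion.

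The RefSeq promoter table (build GRCm38.p6) held 8 of the 10 genes; Egr1 and Ier2 were not among them. The 250 bases before the start of 5 genes are shown because Jun and Zfp36 passed the test in both comparisons that use control forestomach, Fos is the founding AP-1 gene, Dusp1 is the phosphatase, and Ier3 did not share the pattern of the others. The window of Fos lies at chr12:85473640-85473889 (plus strand), Jun at chr4:95052223-95052472 (minus strand) and Zfp36 at chr7:28379229-28379478 (minus strand). That of Dusp1 lies at chr17:26508473-26508722 (minus strand) and Ier3 at chr17:35821463-35821712 (plus strand). Capitals mark matches to the motifs searched, on either strand.
Fos: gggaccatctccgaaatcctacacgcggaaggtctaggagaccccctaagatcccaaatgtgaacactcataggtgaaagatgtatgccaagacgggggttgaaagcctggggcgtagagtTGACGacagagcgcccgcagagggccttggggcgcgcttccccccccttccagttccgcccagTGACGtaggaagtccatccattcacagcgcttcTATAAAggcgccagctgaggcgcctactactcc
Jun: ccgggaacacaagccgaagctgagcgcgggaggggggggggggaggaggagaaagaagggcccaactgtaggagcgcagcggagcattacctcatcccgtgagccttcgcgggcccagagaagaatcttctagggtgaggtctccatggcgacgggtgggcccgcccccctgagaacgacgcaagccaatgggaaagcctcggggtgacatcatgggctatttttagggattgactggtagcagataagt
Zfp36: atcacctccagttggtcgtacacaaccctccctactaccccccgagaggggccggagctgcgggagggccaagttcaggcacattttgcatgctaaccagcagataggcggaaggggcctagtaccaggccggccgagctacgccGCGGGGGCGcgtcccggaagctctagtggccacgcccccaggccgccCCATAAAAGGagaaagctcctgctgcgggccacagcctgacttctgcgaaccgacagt
Dusp1: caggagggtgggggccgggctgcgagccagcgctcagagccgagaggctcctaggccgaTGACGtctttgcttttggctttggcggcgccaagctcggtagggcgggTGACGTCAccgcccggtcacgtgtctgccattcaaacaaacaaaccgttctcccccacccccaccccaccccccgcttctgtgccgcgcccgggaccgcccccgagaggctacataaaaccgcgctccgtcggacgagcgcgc
Ier3: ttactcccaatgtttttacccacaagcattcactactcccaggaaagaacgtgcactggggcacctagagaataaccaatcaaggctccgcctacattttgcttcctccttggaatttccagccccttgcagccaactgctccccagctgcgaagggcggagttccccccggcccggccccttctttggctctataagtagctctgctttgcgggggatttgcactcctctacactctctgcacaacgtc
The motifs were the CArG box bound by serum response factor, the cyclic AMP response element TGACGTCA, its core TGACG, the AP-1 site TGANTCA, the EGR site GCGNGGGCG and the TATA box TATAAA. The core was added after the sequences had been read, and it overlaps TGACGTCA. Within these 250 bases, Zfp36 alone of the 8 genes held a CArG box, from 58 to 49 bases before the start. Of all 32851 promoter windows, 1.467% held one. Sites farther upstream were not searched. Dusp1 alone held TGACGTCA, from 143 to 136 bases before the start, against 1.546% of windows. The core TGACG was present in 5 of the 8 (Fos, Fosb, Junb, Atf3 and Dusp1), against 17.765% of windows. The EGR site was present in Fosb and Zfp36 (4.697% of windows), TATAAA in Fos alone (12.368%), and TGANTCA in none of the 8 (6.749%). The window of Fosb (chr7:19310046-19310295, minus strand) overlaps the RefSeq position of the gene (19302696-19310118). Its EGR and TGACG matches lie in that overlap, so they are not upstream of that gene position. No motif searched was found in this window of Jun or Ier3. The share of G and C in the windows of the 8 genes ran from 54.4% (Ier3) to 68.8% (Fosb). The median over all windows was 52.4%. The shares of all windows with a motif are not matched for this, so they give no measure of enrichment.

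Squamous epithelial markers were high on every array: the mean log2 level of 10 markers, including Krt5, Krt13, Trp63 and Cdh1, lay between 11.84 and 12.13 in the masses, 11.69 and 11.76 in control forestomach, 11.92 and 12.16 in flox/flox esophagus, and 11.79 and 11.84 in control esophagus. Other tissues were present unevenly. The mean of 10 skeletal muscle markers was 8.43 in esophagus control 214, 8.25 in flox/flox esophagus 307 and 9.74 in flox/flox esophagus 335, and lay between 5.51 and 6.36 on the other 10 arrays. Fibroblast and matrix markers were high on the same arrays, at 10.47, 9.14 and 9.54, and in masses 412 and 426, at 8.71 and 9.03. Glandular stomach markers averaged 12.06 in mass 426 and between 5.30 and 5.95 elsewhere. In bulk samples, fewer cells of a type and less RNA per cell cannot be told apart. Ctnnd1, the gene of p120-catenin, averaged 9.70 ± 0.20 in the masses and 10.26 ± 0.14 in control forestomach (SD, n = 3 each), and 10.05 ± 0.08 in flox/flox esophagus and 10.35 ± 0.14 in control esophagus (SD, n = 4 and 3). It fell by 0.56 in the masses (SE 0.12, limma adjusted p = 0.0145), a call lost without forestomach control 214, without both arrays of animal 214 (0.0755), with the forestomach arrays alone (0.0916) and with array weights (0.0510), and the esophagus difference of -0.29 (SE 0.11) did not pass (adjusted p = 0.637). Where its probes lie relative to the floxed exons was not examined here.

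The first comparison asked how the 2 tissues of the same control animals differ. Immediate early genes had higher means in forestomach, where Jun was 1.92-fold and Zfp36 2.06-fold above esophagus. All 10 genes had a positive difference of means, with a median of 0.85 on the log2 scale, against a median of 0.02 over all genes tested. Jun and Zfp36 passed the test (limma, Benjamini-Hochberg adjusted p under 0.05), that is 2 of 10; over all genes 3.51% were called higher, 3.16% lower and 6.67% in either direction. The arrays of both tissues did not overlap for 2 of 10, against 18% of all genes that were higher in forestomach without overlap. At an unadjusted p under 0.05 the count was 6 of 10, all higher, against 10.5% of all genes.

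**Figure D1:**
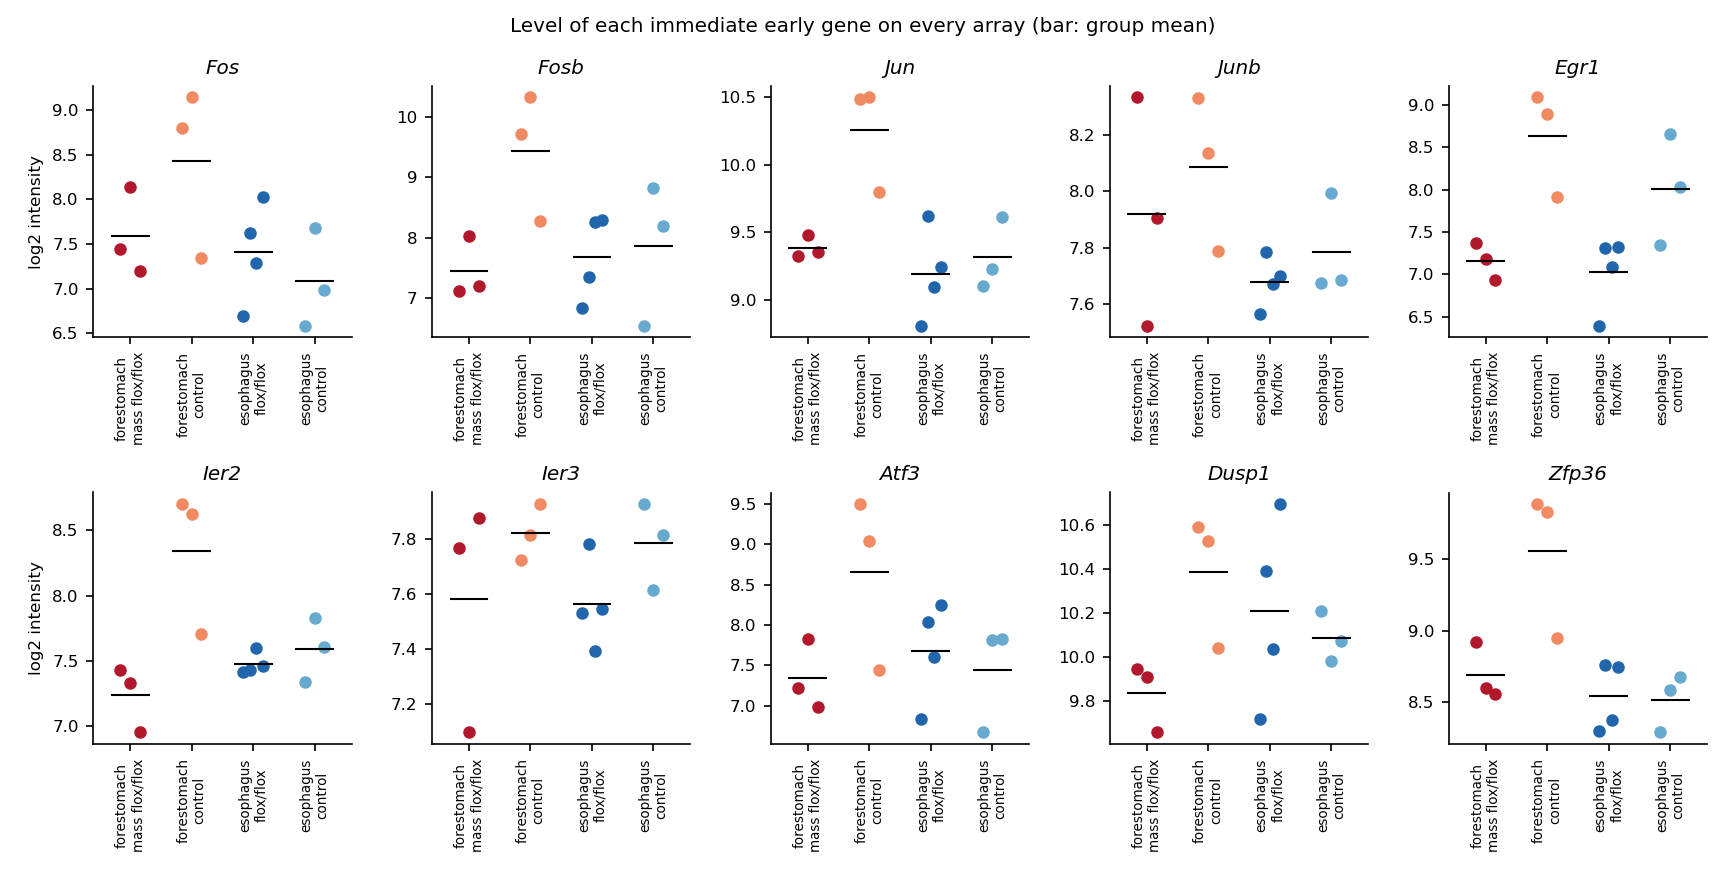
Level of each of the 10 genes on every array, as log2 intensity on the vertical axis, with 1 panel per gene and its own scale. Columns are flox/flox forestomach mass, forestomach control, flox/flox esophagus and esophagus control; points are arrays and bars are group means. The forestomach controls have the highest mean in all 10 panels, with 1 of their 3 points (animal 217) below the other 2 in 9 panels.

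Zfp36, whose product destabilises inflammatory mRNAs, stood at 9.89, 9.83 and 8.95 in forestomach of animals 214, 216 and 217, against 8.29, 8.59 and 8.67 in their esophagus. The 2 groups did not overlap, but forestomach 217 lay closer to the esophagus arrays than to the other 2 forestomach arrays. The difference was 1.04 (SE 0.24, 2.06-fold, limma adjusted p = 0.0215, n = 3 and 3). Jun, the core subunit of AP-1, stood at 10.48, 10.50 and 9.79 in forestomach, against 9.10, 9.23 and 9.61 in esophagus. Again the groups did not overlap, with forestomach 217 and esophagus 217 next to each other. The difference was 0.94 (SE 0.23, 1.92-fold, limma adjusted p = 0.0285).

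Both calls were lost without forestomach 214 (adjusted p = 0.111 for Jun and 0.0908 for Zfp36), forestomach 216 (0.128 and 0.103), esophagus 214 (0.105 and 0.0824) or esophagus 216 (0.0899 and 0.0570). Without the 3 esophagus arrays rich in muscle transcripts they were lost too (0.0904 and 0.104), as they were without both arrays of animal 214 (0.270 and 0.235), whereas 4 genes were called without forestomach 217. Over all genes, 3.4% to 4.14% were called in these fits without 1 array, 3.15% without the 3 muscle-rich arrays and 1.89% without animal 214, against 6.67% with all arrays. A random block for the animal called Jun, Zfp36, Ier2 and Fos (adjusted p = 0.00846, 0.00553, 0.0226 and 0.0294), that is 4 of the 10 genes, in a fit that called 16.8% of all genes. That block takes 1 within-animal correlation, 0.396, for all genes. Over the 10 genes alone, deviations from group means correlated at -0.546, 0.828 and -0.467 within animals 214, 216 and 217. With the animal as a fixed block in a fit of the 6 control arrays none passed (adjusted p = 0.0630 for Jun and 0.0541 for Zfp36), where 16.9% of all genes were called.

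Among the other AP-1 subunits, Fosb had the largest difference of the 10 genes, 1.59 (SE 0.64, limma adjusted p = 0.173). Its levels were 9.72, 10.33 and 8.27 in forestomach, against 6.53, 8.83 and 8.20 in esophagus. Esophagus 214 was the lowest array of all 13 for Fosb, and the groups overlapped. Fos stood at 8.81, 9.15 and 7.35 in forestomach, against 6.58, 7.68 and 6.98 in esophagus, a difference of 1.35 (SE 0.47, adjusted p = 0.120). Its groups overlapped because forestomach 217 lay below esophagus 216. Junb, which often opposes Jun in keratinocytes, was 8.33, 8.14 and 7.79 in forestomach, against 7.68, 7.996 and 7.69 in esophagus. That difference was 0.30 (SE 0.19, adjusted p = 0.408), within the overlap of the groups.

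Egr1, a zinc finger factor induced through serum response elements, was 9.09, 8.90 and 7.91 in forestomach, against 7.35, 8.65 and 8.03 in esophagus (difference 0.62, SE 0.37, limma adjusted p = 0.363). Atf3, a stress-induced repressor of the CREB family, was 9.50, 9.04 and 7.44 in forestomach, against 6.67, 7.81 and 7.83 in esophagus (difference 1.22, SE 0.52, adjusted p = 0.200). For both genes, animal 217 had the lower level in forestomach. Ier2 was 8.70, 8.63 and 7.71 in forestomach, against 7.33, 7.83 and 7.61 in esophagus, and its difference of 0.76 (SE 0.23) missed the threshold (adjusted p = 0.0813). Dusp1 was 10.59, 10.53 and 10.04 in forestomach, against 10.21, 9.98 and 10.07 in esophagus, a difference of 0.30 (SE 0.22, adjusted p = 0.482). Ier3 was the exception, with 7.73, 7.82 and 7.93 in forestomach, against 7.93, 7.62 and 7.82 in esophagus, and a difference of 0.04 (SE 0.18, 95% interval -0.36 to 0.44).

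**Figure D2:**
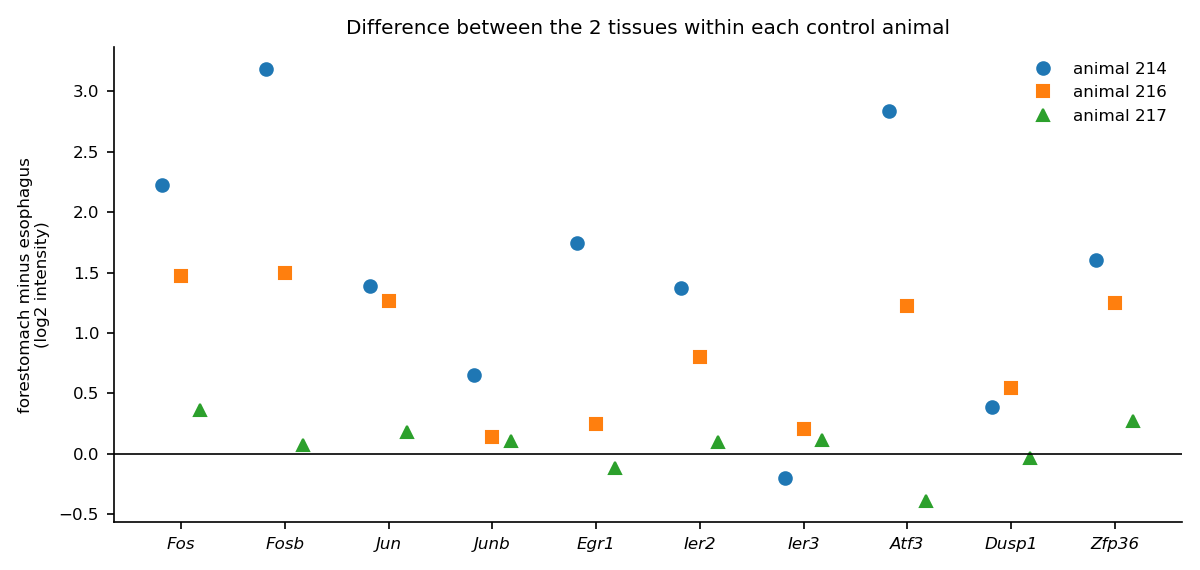
Forestomach minus esophagus log2 intensity (vertical axis) for each gene (horizontal axis) within control animals 214, 216 and 217, 1 point per animal. Fosb differs by 3.19 in animal 214, 1.50 in 216 and 0.07 in 217, and animal 217 has the smallest difference of the 3 animals in 9 of 10 genes.

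Taken within animals, the difference of the tissues had a median over the 10 genes of 1.49 in animal 214, 1.01 in animal 216 and 0.10 in animal 217. The same median over all genes was 0.03, -0.01 and 0.05 in these animals. In animal 214 the difference was positive for 9 genes, with Ier3 at -0.20, and in animal 216 for 10. Animal 217 had it positive for 7, the exceptions being Atf3 (-0.39), Egr1 (-0.12) and Dusp1 (-0.03). In all 3 animals it was positive for 6 of the 10 (Fos, Fosb, Jun, Junb, Ier2 and Zfp36), against 30.5% of all genes. Animals 214 and 216 both had a larger difference than 217 in 9 of 10 genes, Ier3 being the exception, against 27.1% of all genes. Esophagus 214 was the lowest esophagus control for 8 of 10 genes (44.7% of all genes), and that array also held high muscle and fibroblast transcripts; their part in the result was not tested. The 2 arrays of animal 216 had muscle marker means of 5.89 in forestomach and 5.76 in esophagus. Its differences ran from 0.14 for Junb, 0.20 for Ier3 and 0.25 for Egr1 to 1.47 for Fos and 1.50 for Fosb. Animal 217 had similar muscle marker means, 5.82 in forestomach and 5.61 in esophagus, and differences from -0.39 for Atf3 to 0.36 for Fos.

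The next comparison set flox/flox forestomach masses against control forestomach. Egr1, Ier2, Jun and Zfp36 fell in the masses by 1.82- to 2.77-fold. All 10 genes had a negative difference of means, with a median of -0.87, against 0.01 over all genes tested. The 4 genes called lower compare with 8.4% of all genes called lower, 2.31% called higher and 10.7% called in either direction. At an unadjusted p under 0.05, 7 of 10 were lower, against 16.2% of all genes. All 3 masses lay below all 3 controls for 6 of the 10 (Fosb, Jun, Egr1, Ier2, Dusp1 and Zfp36), against 17.5% of all genes. The 3 control forestomach arrays are the ones used in the comparison of tissues, so the 2 sets of differences are not independent. Marker means of some other cell types were higher in the masses without overlap. Endothelium lay between 6.37 and 7.57 in the masses, against 5.40 and 6.12 in controls. Macrophages and monocytes lay between 6.80 and 7.74 in the masses, against 6.28 and 6.40 in controls. Neutrophils lay between 6.23 and 7.71 in the masses, against 5.48 and 5.78 in controls. Fibroblast, smooth muscle, T and NK cell, skeletal muscle and glandular stomach marker means overlapped between masses and controls. Of the markers tested, 0 of 8 for endothelium and 0 of 9 for macrophages and monocytes were called higher. The neutrophil list was uneven: over all arrays S100a8, S100a9 and Cxcr2 reached 12.59, 12.42 and 8.21, while Ly6g, Csf3r, Mpo and Elane never passed 5.79. In the masses 2 of 6 tested neutrophil markers were called higher, so this mean does not speak for the whole list. The part of these cell types in the result was not tested.

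Ier2 was 7.43, 7.33 and 6.95 in masses 412, 426 and 510, against 8.70, 8.63 and 7.71 in forestomach controls 214, 216 and 217. It fell by 1.11 (SE 0.23, 2.15-fold, limma adjusted p = 0.0127, n = 3 and 3). The SE rests on 1 spread over all 4 groups. The SDs of Ier2 were 0.25 in the masses, 0.55 in control forestomach and 0.08 in flox/flox esophagus. Egr1 was 7.37, 7.19 and 6.93 in the masses, against 9.09, 8.90 and 7.91 in controls, and fell by 1.47 (SE 0.37, 2.77-fold, adjusted p = 0.0267). In both genes the gap between mass 412 and control 217 was narrower than the gap between control 217 and the other controls. Jun was 9.32, 9.48 and 9.35 in the masses, against 10.48, 10.50 and 9.79 in controls, and fell by 0.88 (SE 0.23, 1.83-fold, adjusted p = 0.0307). Zfp36 was 8.92, 8.59 and 8.56 in the masses, against 9.89, 9.83 and 8.95 in controls, and fell by 0.87 (SE 0.24, 1.82-fold, adjusted p = 0.0373). Mass 412 lay just below control 217 for Zfp36, whereas the 3 masses lay close together for Jun (SD 0.08).

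The 4 calls depended on forestomach controls 214 and 216. Without control 214 none was called (adjusted p = 0.113 for Egr1, 0.0588 for Ier2, 0.122 for Jun and 0.150 for Zfp36), nor without control 216 (0.0982, 0.0566, 0.115 and 0.137); over all genes 4.72% and 5.22% were called in these fits, against 10.7% with all arrays. Without control 217, 6 of the 10 were called, with 5.09% of all genes called. Without mass 510 the count was 1, with Egr1 (0.0598), Jun (0.0550) and Zfp36 (0.0787) lost, though 14.2% of all genes were called. Jun was also lost without mass 412 (0.0776), where 7.52% of all genes were called. Zfp36 was lost without mass 426 (0.0782) or esophagus control 216 (0.0540) or 217 (0.0503), in fits that called 8.9% to 11.6% of all genes. With the forestomach arrays alone none passed (0.0534 for Egr1, 0.0806 for Ier2, 0.0671 for Jun and 0.120 for Zfp36), in a fit that called 2.95% of all genes. Array weights gave none either (0.232, 0.239, 0.307 and 0.396), with 6.94% of all genes called. A random block for the animal left 2 called, Egr1 (0.0392) and Ier2 (0.0186), with Jun (0.0532) and Zfp36 (0.0605) lost and 10.2% of all genes called. Mass 426 held glandular stomach transcripts, and without it 3 genes were called, with 11.6% of all genes called. Quantile normalization lost Zfp36 (0.0528), with 10.2% of all genes called. The filter at log2 above 7 added Fosb (0.0467), with 21.4% of the genes tested called.

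Among the genes that did not pass, Fosb had the largest difference, -1.996 (SE 0.64, limma adjusted p = 0.0681), with 7.12, 8.02 and 7.20 in masses 412, 426 and 510, against 9.72, 10.33 and 8.27 in controls. Its groups did not overlap. Atf3 was 7.22, 7.82 and 6.99 in the masses, against 9.50, 9.04 and 7.44 in controls (difference -1.32, SE 0.52, adjusted p = 0.140). Fos was 7.44, 8.13 and 7.19 in the masses, against 8.81, 9.15 and 7.35 in controls (difference -0.84, SE 0.47, adjusted p = 0.308). For both genes mass 426 lay above control 217, as mass 412 did for Fos, so the groups overlapped. Dusp1 was 9.94, 9.91 and 9.66 in the masses, against 10.59, 10.53 and 10.04 in controls, a difference of -0.55 (SE 0.22, adjusted p = 0.150). Junb was 8.33, 7.52 and 7.90 in the masses, against 8.33, 8.14 and 7.79 in controls, and Ier3 was 7.77, 7.10 and 7.88 in the masses, against 7.73, 7.82 and 7.93 in controls. Differences of -0.17 (SE 0.19) for Junb and -0.24 (SE 0.18) for Ier3 lay within the overlap of their groups, and mass 426 was the lowest of all 13 arrays for both.

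**Figure D3:**
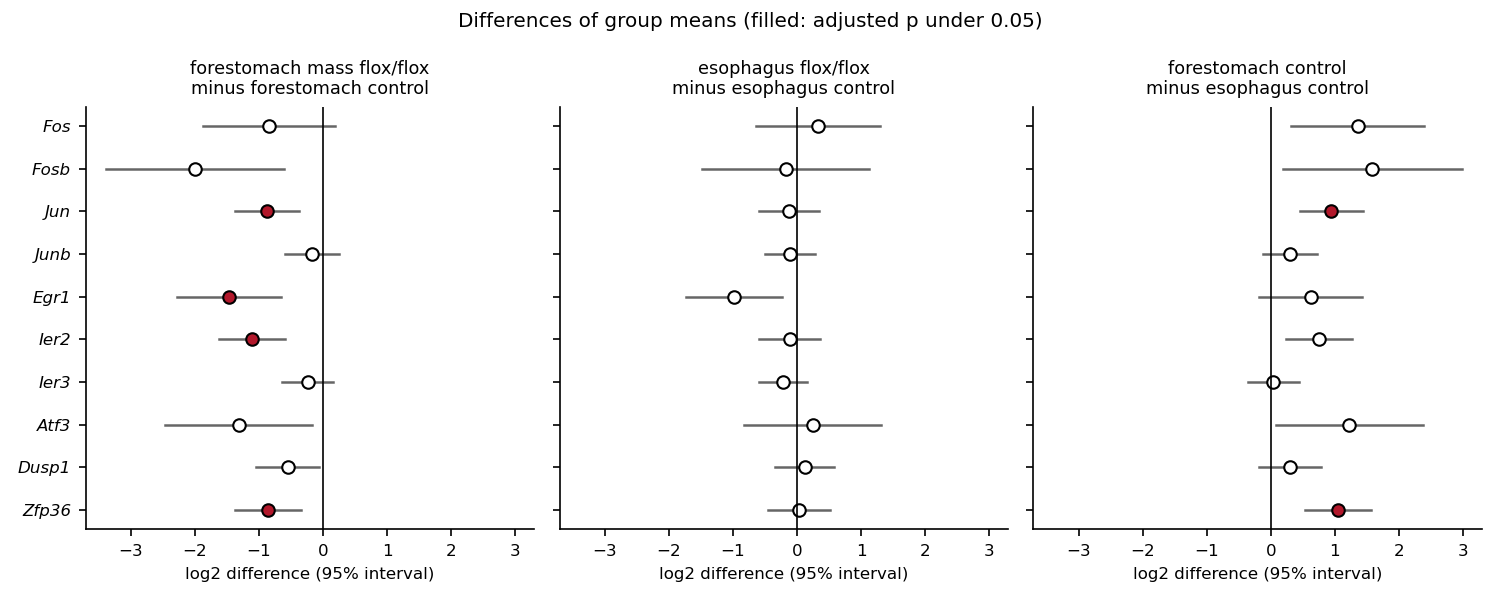
Differences of group means on the log2 scale (horizontal axis) with their 95% interval from the fit, for each gene (rows), in 3 comparisons: flox/flox mass minus control forestomach, flox/flox minus control esophagus, and control forestomach minus control esophagus. Filled points passed the test; 4 do so in the first panel (Jun, Egr1, Ier2 and Zfp36), 0 in the second and 2 in the third (Jun and Zfp36).

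In the esophagus, flox/flox epithelium was set against control epithelium. None of the 10 genes passed (limma), where 0.0126% of all genes were called. The count lower at an unadjusted p under 0.05 was 1 of 10, Egr1, against 4.27% of all genes. Differences ran from -0.98 to 0.33 with a median of -0.11, 4 above and 6 below 0, against 0.01 over all genes. Adjusted p-values lay between 0.587 and 0.998.

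Egr1 was 6.39, 7.31, 7.09 and 7.32 in flox/flox animals 193, 307, 313 and 335, against 7.35, 8.65 and 8.03 in controls 214, 216 and 217. Its groups did not overlap, which held for 6.1% of all genes in that direction, and the difference was -0.98 (SE 0.35, limma adjusted p = 0.587, n = 4 and 3). The gap between flox/flox 335 and control 214, both rich in muscle transcripts, was small. Fosb was 6.83, 7.34, 8.26 and 8.29 in flox/flox esophagus, against 6.53, 8.83 and 8.20 in controls, a difference of -0.17 (SE 0.60). Fos was 6.69, 7.63, 7.29 and 8.02 in flox/flox esophagus, against 6.58, 7.68 and 6.98 in controls, a difference of 0.33 (SE 0.44). In both genes the 2 groups covered much the same range.

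Jun was 8.80, 9.62, 9.09 and 9.24 in flox/flox esophagus, against 9.10, 9.23 and 9.61 in controls, with a difference of -0.12 (95% interval -0.59 to 0.34). Zfp36 was 8.30, 8.76, 8.37 and 8.75 in flox/flox esophagus, against 8.29, 8.59 and 8.67 in controls, with a difference of 0.03 (95% interval -0.45 to 0.51). Ier2 was tightly grouped in flox/flox esophagus, at 7.42, 7.43, 7.60 and 7.46, against 7.33, 7.83 and 7.61 in controls (difference -0.11, 95% interval -0.59 to 0.37). All 3 intervals hold 0. Atf3 was 6.83, 8.04, 7.60 and 8.24 in flox/flox esophagus, against 6.67, 7.81 and 7.83 in controls, and Dusp1 was 9.71, 10.39, 10.04 and 10.70 in flox/flox esophagus, against 10.21, 9.98 and 10.07 in controls. For these genes flox/flox animals 307 and 335 were the highest in their group, and these arrays held skeletal muscle transcripts, whose part was not tested. Junb (7.56, 7.79, 7.67 and 7.70 in flox/flox esophagus, against 7.68, 7.996 and 7.69 in controls) differed by -0.11. Ier3 (7.53, 7.78, 7.40 and 7.55 in flox/flox esophagus, against 7.93, 7.62 and 7.82 in controls) differed by -0.22.

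Whether the flox/flox change differed between the tissues was tested directly as the change in the forestomach masses minus the change in esophagus. None of the 10 genes passed (limma adjusted p between 0.275 and 0.991), against 0.139% of all genes, and 4 of 10 were below 0 at an unadjusted p under 0.05, against 7.61% of all genes. All 10 differences were negative, with a median of -0.82 against -0.01 over all genes. Ier2 had the smallest adjusted p, with -0.99 (SE 0.32, 95% interval -1.70 to -0.29). Zfp36 had -0.89 (95% interval -1.60 to -0.19), Jun -0.75 (-1.43 to -0.07) and Dusp1 -0.67 (-1.34 to -0.0019). For Egr1, whose differences were negative in both tissues, the difference was -0.49 (95% interval -1.59 to 0.61). These values share both control groups with the comparisons above.

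Across all 4 groups, control forestomach had the highest mean for 10 of 10 genes, against 27.9% of all genes. The group next in order was the flox/flox mass for Fos, Jun, Junb and Zfp36, control esophagus for Fosb, Egr1, Ier2 and Ier3, and flox/flox esophagus for Atf3 and Dusp1. Neighbouring groups in these orders overlapped in all but 3 cases: control forestomach lay wholly above the masses for Jun and Zfp36, and control esophagus wholly above the masses for Dusp1. This goes by single arrays and leaves out the pairing of the control animals: Fosb and Ier2 had overlapping forestomach and esophagus controls but were higher in forestomach in all 3 animals. Groups farther apart in the order could still be separate, as control esophagus was from flox/flox esophagus for Egr1.

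**Figure D4:**
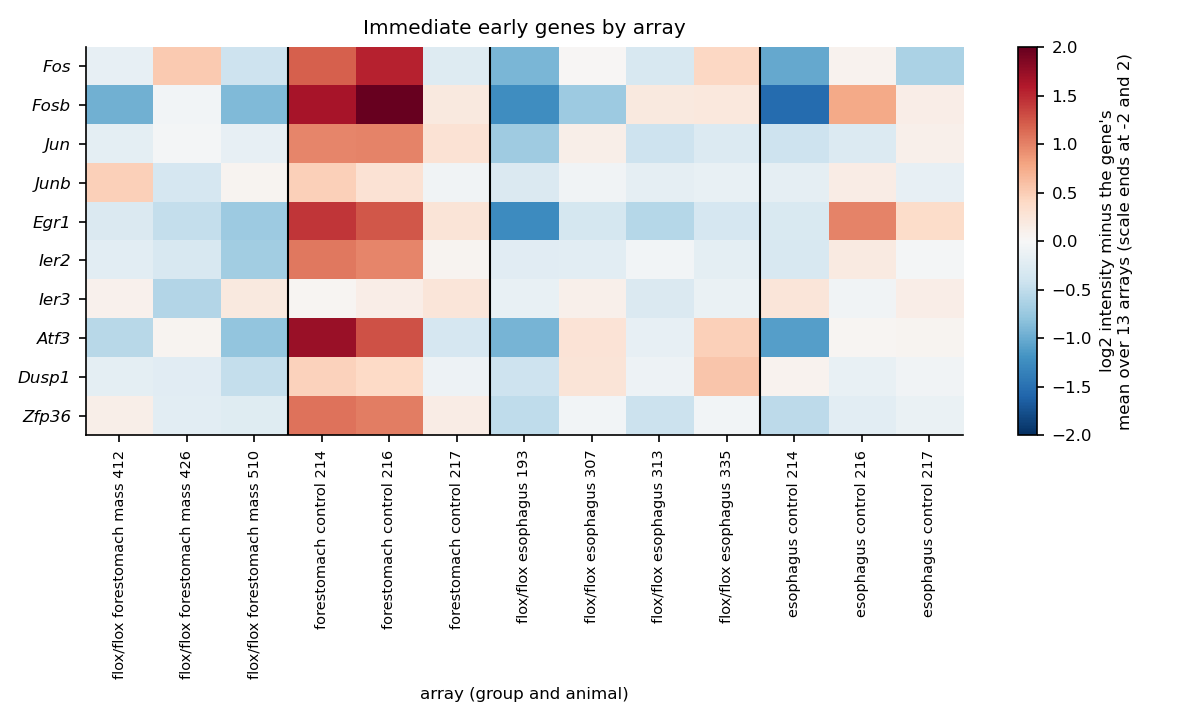
Log2 intensity of each gene (rows) on each of 13 arrays (columns, by group and animal) minus that gene's mean over the 13 arrays, as colour; values beyond -2 or 2 take the end colour. Forestomach controls 214 and 216 have mean deviations of 1.01 and 1.01 over the 10 genes, and forestomach control 217 has 0.04.

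Mean deviations from each gene's own average were 1.01 and 1.01 in forestomach controls 214 and 216, but 0.04 in forestomach control 217. They were -0.19, -0.16 and -0.41 in masses 412, 426 and 510. In flox/flox esophagus they were -0.67, -0.07, -0.23 and 0.05 in animals 193, 307, 313 and 335, against -0.51, 0.15 and -0.02 in esophagus of control animals 214, 216 and 217. Forestomach controls 214 and 216 both stood above all the other arrays for 7 of the 10 genes (Fos, Fosb, Jun, Egr1, Ier2, Atf3 and Zfp36), against 3.5% of all genes. Flox/flox animal 193 was the lowest of its group for 9 of 10, Ier3 being the exception, against 26.3% of all genes. These positions were noticed in the data and carry no test.

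**Figure D5:**
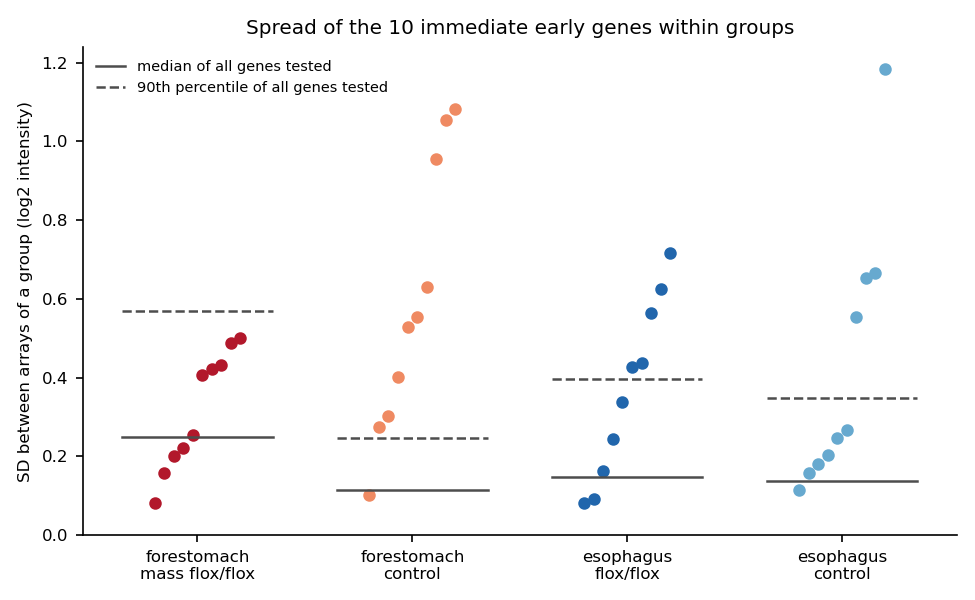
SD between the arrays of a group in log2 intensity (vertical axis) for the 10 genes (points) in each group; the solid line is the median SD of all genes tested and the dashed line their 90th percentile. In control forestomach 9 of 10 points lie above the dashed line, and in the masses 0 do.

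The spread within control forestomach was wide for these genes. The SEs, intervals and p-values of the main fit take 1 spread per gene over all 4 groups. They do not carry this wider spread in full. Their SDs there had a median of 0.54 (range 0.10 to 1.08), against a median of 0.11 and a 90th percentile of 0.25 over all genes tested, and 9 of the 10 exceeded that percentile. In flox/flox esophagus the median SD was 0.38 and in control esophagus 0.26, with 5 and 4 genes above the 90th percentile of all genes (0.40 and 0.35). In the masses the median SD was 0.33, with no gene above the 90th percentile of 0.57, although the masses had the widest spread over all genes (median 0.25). Forestomach control 217 was the lowest of its group for 9 of the 10 genes, against 24.5% of all genes. Squamous marker means were 11.75, 11.69 and 11.76 in forestomach controls 214, 216 and 217. Macrophage and monocyte marker means were 6.28, 6.32 and 6.40 there. Smooth muscle and pericyte markers stood at 8.03 in 214 and at 6.01 and 5.99 in 216 and 217.

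Other genes of the early response were read from lists chosen with earlier results of these data known. In the comparison of control tissues, 3 of 29 other immediate early transcription factors were called higher in forestomach and 1 lower (median 0.17), against 3.51% and 3.16% of all genes. Nr4a1, an orphan nuclear receptor, rose by 1.85 (SE 0.45, limma adjusted p = 0.0319), to a mean of 8.40 in forestomach, against 6.56 in esophagus. Egr3, a relative of Egr1, rose by 0.92 (SE 0.18, adjusted p = 0.00974) and Id1, an inhibitor of basic helix-loop-helix factors, by 0.97 (SE 0.17, adjusted p = 0.00581). Bhlhe40, a clock-linked repressor, fell by 1.49 (SE 0.32, adjusted p = 0.0149), to 7.90 in forestomach, against 9.38 in esophagus. Of 34 other early response regulators 6 were called higher and 0 lower (median 0.21). Gadd45a, a DNA damage and stress response gene, rose by 1.30 (SE 0.16, adjusted p = 0.000663), the ERK phosphatase gene Dusp5 by 1.45 (SE 0.24, adjusted p = 0.00416), the nuclear phosphatase gene Dusp2 by 0.79 (SE 0.15, adjusted p = 0.00812) and the antiproliferative gene Btg2 by 1.34 (SE 0.26, adjusted p = 0.00916).

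Early secreted factors had 1 of 15 called higher (median 0.21), the EGFR ligand gene Ereg (1.25, SE 0.31, limma adjusted p = 0.0342). Genes of the ERK, SRF and CREB input had 1 of 18 called, Creb1, lower by 0.35 (adjusted p = 0.0420), with a median of 0.05. Heat shock and dissociation stress genes had 1 of 17 called higher, the heme oxygenase gene Hmox1 (1.14, SE 0.31, adjusted p = 0.0462), and 1 lower, the metallothionein gene Mt2 (-0.51, SE 0.13, adjusted p = 0.0408), with a median of -0.03. These counts stand beside 3.51% of all genes called higher and 3.16% called lower. Gadd45a, Dusp5, Dusp2, Btg2, Id1 and Egr3 stayed called without any single array. Of the 12 genes named in this comparison, all but Gadd45a lost their call without both arrays of animal 214 (adjusted p between 0.0699 and 0.234), and all but Gadd45a and Dusp5 lost it without the 3 muscle-rich esophagus arrays (between 0.0537 and 0.203). Mt2 was also lost under quantile normalization (0.0761), and Hmox1 with no filter and with centring on the median (0.0531 in both). Bhlhe40 was called in 10 of the 13 fits that each left out 1 array, Nr4a1 in 8, Ereg in 7, Mt2 in 4, Creb1 in 3 and Hmox1 in 3.

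In the masses, 10 of 34 other early response regulators were called lower and 2 higher (median -0.17), against 8.4% and 2.31% of all genes, the shares to set beside each list count in the masses. Gadd45a fell by 1.15 (SE 0.16, limma adjusted p = 0.00219), Btg2 by 1.29 (SE 0.26, adjusted p = 0.0101), the kinase gene Pim1 by 0.88 (SE 0.19, adjusted p = 0.0124) and Btg1 by 0.48 (SE 0.11, adjusted p = 0.0167). Other immediate early transcription factors had 2 of 29 called higher and 1 lower (median -0.08): the interferon regulatory factor gene Irf1 rose by 1.03 (SE 0.24, adjusted p = 0.0205) but by 0.35 with its probe sets averaged (adjusted p = 0.154), Id3 rose by 0.96 (SE 0.22, adjusted p = 0.0179) and the Notch target Hes1 fell by 0.69 (SE 0.13, adjusted p = 0.00670). Of the early secreted factors, 3 of 15 were called higher and 1 lower (median 0.35). The urokinase receptor gene Plaur rose by 1.25 (SE 0.19, adjusted p = 0.00255), the matrix protein genes Thbs1 and Ccn2 by 1.78 (adjusted p = 0.0136) and 0.97 (adjusted p = 0.0318), and Ereg fell by 1.80 (SE 0.31, adjusted p = 0.00523). Fibroblast markers averaged 8.71, 9.03 and 7.21 in the masses, against 7.53, 6.60 and 6.58 in control forestomach; their part in the rises of Thbs1 and Ccn2 was not tested.

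The stress kinase gene Mapk8, which encodes JNK1, the kinase that phosphorylates Jun, fell by 0.65 in the masses (SE 0.12, limma adjusted p = 0.00762). Elk3, an SRF partner, rose by 1.42 (SE 0.35, adjusted p = 0.0251); these were 1 called each way of 18 input genes (median -0.13). Hmox1 fell by 1.44 (SE 0.31, adjusted p = 0.0130), the 1 gene called of 17 heat shock and dissociation stress genes (median 0.04). Gadd45a, Btg2, Hes1, Plaur, Ereg and Mapk8 stayed called without any single array, while Pim1, Thbs1 and Hmox1 were called in 12 of 13 such fits, Btg1 and Id3 in 11, Irf1 and Elk3 in 9 and Ccn2 in 8. With the forestomach arrays alone the calls of Btg2, Hes1, Mapk8, Pim1, Btg1, Irf1, Elk3 and Hmox1 were lost (adjusted p between 0.0526 and 0.0818), and with array weights those of Btg2 (0.209), Mapk8 (0.129), Ccn2 (0.0724) and Elk3 (0.0601). Without both arrays of animal 214, Btg2, Hes1, Btg1, Irf1, Thbs1, Ccn2, Elk3 and Hmox1 lost theirs (up to 0.0983).

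In flox/flox esophagus no gene of the 5 lists was called (limma). The smallest p-values in each list belonged to Hes1 (-0.41) and Nfil3 (1.03), Socs3 (0.67) and Nfkbiz (0.43), Ptgs2 (-1.0036) and Ereg (-0.74), Mapk8 (-0.23) and Elk4 (0.17), and Hspa5 (0.54) and Hspa8 (0.20), with adjusted p between 0.510 and 0.846. List medians lay between -0.05 and 0.02. For the difference of the flox/flox changes no list gene was called in the fit of all arrays without the block. Those with the smallest p were Bhlhe40 (1.04) and Id3 (0.71), Gadd45a (-1.21, adjusted p = 0.0571) and Btg2 (-1.37, adjusted p = 0.167), Ptgs2 (2.08, adjusted p = 0.0981) and Plaur (0.92), Mapk8 (-0.42) and Mrtfb (-0.52), and Hmox1 (-1.13) and Mt2 (-0.38). Gadd45a, Btg2, Ptgs2, Plaur and Hmox1 were each called in 1 of the 13 fits that left out 1 array. Gadd45a was also called with the filter at log2 above 7 (0.0347), a pseudocount of 16 (0.0442), array weights (0.0447) and a random block for the animal (0.0216), and Ptgs2 with that block (0.0390).

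The genes whose levels over the 13 arrays were most like the mean standardised level of the 10 genes were Aqp11, Btg2, Dock6, Fam181b, Klhl5, Rab11fip1, Adm and Arhgap17. Their Pearson r ran from 0.905 for Aqp11 to 0.853 for Arhgap17, and the 99.9th percentile over all genes tested was 0.848. These genes were picked for the highest r, so their place above that percentile follows from the choice. The arrays share animals and groups, and the values are a description. Each of the 10 genes is part of that mean, which raises its own r, so their values cannot be set beside those above. Among the 10 genes themselves, Zfp36 was closest to their mean (r = 0.962), followed by Jun (0.926), Ier2 (0.914), Atf3 (0.903), Egr1 (0.899), Fosb (0.873) and Fos (0.852). Dusp1 (0.714), Junb (0.713) and Ier3 (0.276) followed it less. Btg2, picked for this likeness, had the same split of the forestomach controls. It was 8.17, 8.64 and 8.01 in masses 412, 426 and 510, against 10.08, 9.72 and 8.88 in controls 214, 216 and 217. Adm, which encodes the vasoactive peptide adrenomedullin, was 6.68, 7.19 and 7.48 in the masses, against 9.46, 10.03 and 8.03 in forestomach controls. In esophagus Adm was 6.07, 6.61, 6.44 and 6.73 in flox/flox animals, against 6.78, 6.77 and 6.38 in controls.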

How the data were processed

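RNA was measured on 13 mouse gene arrays. The values are linear intensity values that the authors deposited after GCRMA (background correction and summary of probes), per the submitters' processing notes; its version is not given in the sources used here. Array medians lay between 65.3 and 72.4 and maxima between 20585 and 21860, and precision is limited by how few arrays there are.

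Of 34729 probe sets, 1 gene was annotated to 21633, several to 1306 and no gene to 11790. Values were put on the log2 scale with no pseudocount (a floor of 1 changed 0 values). Genes whose log2 level passed 5 on 3 or more arrays were tested, each read by its probe set with the highest mean; 4059 genes fell below the filter. One limma 3.58.1 fit (R 4.3.3, lmFit and eBayes) gave each of 4 groups a mean, with 9 residual degrees of freedom and without the animal. It assumes that a gene has the same spread in all 4 groups. The p-values were adjusted by Benjamini-Hochberg over 15875 genes. Data were simulated for the comparison of control tissues on 15875 genes. There 74 of 100 changes of log2 1 and 94 of 100 of log2 2 were recovered, with 5 false calls. These shares describe genes at large and give no measure of power for the immediate early genes. In control forestomach the median SD of those genes was 0.54, against 0.11 over all genes tested.

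The animal pairs the control arrays, per the labels: deviations from group means correlated at 0.401, 0.398 and 0.315 within animals 214, 216 and 217, and at -0.425 to 0.129 between animals. Over the 10 members alone the within-animal values were -0.546, 0.828 and -0.467, and those between animals -0.842 to 0.860. Other replicates are different animals.

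The members and lists were chosen with earlier results of these data known. Named are all 10 members, Ctnnd1, up to 4 called genes per list and comparison (2 by smallest p where none was called) and the 8 genes most alike, predicted and RIKEN genes excepted. Lists held 29 of 30, 34 of 35, 17 of 19, 18 of 24 and 17 of 20 genes with a probe set of their own (transcription factors, regulators, secreted factors, input, stress). Promoters and positions are RefSeq's (GRCm38.p6).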

Additional observations from a re-analysis of the deposited data

How the results depend on the processing

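Both counts of immediate early genes called stayed within 1.5 times under no filter, a filter at log2 above 7, averaged probe sets, quantile normalization, centring on the median and a pseudocount of 16. In the masses, however, quantile normalization lost Zfp36 and the filter at 7 added Fosb. With that filter 13% of the genes tested were called between control tissues and 21.4% in the masses, against 6.67% and 10.7% at the filter of 5. The other settings called 5.03% to 7.12% and 7.87% to 10.7%. For control forestomach against control esophagus the count of 2 became 4 with the animal as a random replicate block, while calls over all genes went up to 16.8%, against 6.67%. It became 0 with the animal as a fixed replicate block in the 6 control arrays (16.9% of all genes called). The same held without the 3 muscle-rich esophagus arrays (3.15%) and without both arrays of animal 214 (1.89%). The count ran from 0 to 4 without single arrays, while 3.4% to 9.93% of all genes were called. For the masses the count of 4 became 2 with the random replicate block (10.2% of all genes, against 10.7%), and 0 with array weights (6.94%), with the forestomach arrays alone (2.95%) and without both arrays of animal 214 (3.37%). Without single arrays it ran from 0 to 6, while 4.72% to 14.2% of all genes were called. Fits without arrays hold fewer samples; the cause of the other changes was not tested. The counts of 0 in esophagus and for the difference of changes stayed 0 in every alternative run.

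Signs turned for differences that had not passed. Without the 3 muscle-rich arrays the flox/flox esophagus difference was -0.34 for Fos, -0.60 for Atf3, -0.15 for Dusp1 and -0.30 for Zfp36, and the difference of changes was 0.059 for Junb, 0.13 for Egr1 and 0.010 for Ier3. Without both arrays of animal 214 the esophagus values were -0.14 for Atf3 and -0.087 for Zfp36, and the differences of changes 0.12 for Junb and 0.070 for Egr1. Array weights gave -0.011 for Zfp36 in esophagus and 0.0016 for the difference of changes of Junb. Centring gave -0.0061 for Ier3 between control tissues. Without single arrays the ranges were -0.049 to 0.11 for Ier3 between control tissues, and -0.37 to 0.033 for Junb and -0.39 to 0 for Ier3 in the masses. In flox/flox esophagus they were -0.83 to 0.31 for Fosb, -0.27 to 0.026 for Jun, -0.24 to 0.0052 for Ier2, -0.14 to 0.53 for Atf3, -0.039 to 0.29 for Dusp1 and -0.087 to 0.11 for Zfp36. For the difference of changes they were -0.27 to 0.14 for Junb and -0.17 to 0.22 for Ier3.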
